A study of Mus musculus with 4 samples.

Results

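Canonical Polycomb repressive complex 1 (PRC1) was followed through 9 of its genes in granule-cell-enriched (GCE) tissue of the mouse cerebellum: the polyhomeotic genes *Phc1*, *Phc2* and *Phc3*, the ligase genes *Ring1* and *Rnf2*, the Pcgf gene *Bmi1*, and the chromodomain genes *Cbx6*, *Cbx7* and *Cbx8*. The 9 genes were taken by gene ID from 24532 IDs, and all 9 were among the 13652 tested genes, those with a mean TPM of 1 or more over the 4 libraries. The set was chosen by the TPM of *Phc3* in *Kdm3b*+/- against wild-type (WT) mice, where it was low in *Kdm3b*+/- tissue, with paralogs and partners added by name and with the values of all 9 known, so their differences between genotypes are given as descriptions without a p-value. TPM is a level scaled for transcript length and library size.

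The mice were adult males of 2 genotypes, *Kdm3b*+/- and WT littermates, with 2 mice per genotype and 1 mRNA library per mouse. The *Kdm3b*+/- mice carried a gene-trap vector in an intron of 1 allele of *Kdm3b*, which encodes a histone H3K9 demethylase, in every cell of the body. All of them descended from a single gene-trap ES cell line, so the allele is 1 insertion, and the line had been backcrossed to C57Bl/6N and then crossed to C57Bl/6J mice. GCE tissue was cut by hand from slices of the cerebellar vermis, and other cell types remained in it. With 2 mice per genotype the limma p-values given below for other genes, and the standard errors, rest on the spread among these few mice only. For each gene limma moderates that spread toward the spread of all tested genes at a similar level. An exact two-sided permutation test of a single gene cannot give a p below 0.333.

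PRC1 places ubiquitin on histone H2A and compacts chromatin at silenced developmental genes. RING1 or RNF2 is the ligase, a PCGF protein such as BMI1 is its partner, a CBX chromodomain protein binds H3K27me3, the histone mark made by Polycomb repressive complex 2 (PRC2), and a PHC protein joins complexes to each other by polymerisation of its SAM domain. In mature neurons Polycomb complexes keep genes of other lineages and of development silent.

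By their coordinates the deposited tables use the GRCm38 build, on which the 9 genes lie on different chromosomes except for *Cbx6* and *Cbx7*, both on chromosome 15. *Phc3* (gene ID 241915) spans chr3:30899295-30969415 on the minus strand, *Phc1* (13619) spans chr6:122317731-122340227 on the minus strand, and *Phc2* (54383) spans chr4:128654702-128752881 on the plus strand. The promoters of *Phc3*, of its paralog *Phc1* and of *Cbx7* are shown because *Phc3* and *Cbx7* had the largest differences among the 9 genes and *Phc1* is a paralog without such a difference. Each sequence is the 250 bases before the RefSeq start in GRCm38.p6, 5′ to 3′ on the strand of the gene, with every CpG in capitals.
*Phc3*, chr3:30969416-30969665, minus strand: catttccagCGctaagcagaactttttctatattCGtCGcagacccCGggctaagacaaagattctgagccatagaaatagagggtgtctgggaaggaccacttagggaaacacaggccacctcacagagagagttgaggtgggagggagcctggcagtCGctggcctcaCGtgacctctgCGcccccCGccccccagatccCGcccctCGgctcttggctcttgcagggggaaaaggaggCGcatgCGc
*Phc1*, chr6:122340228-122340477, minus strand: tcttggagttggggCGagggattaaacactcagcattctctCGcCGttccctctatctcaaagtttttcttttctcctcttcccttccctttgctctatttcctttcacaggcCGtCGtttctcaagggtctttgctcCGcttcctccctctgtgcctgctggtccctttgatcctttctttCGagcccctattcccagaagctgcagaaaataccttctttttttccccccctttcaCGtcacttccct
*Cbx7*, chr15:79932647-79932896, minus strand: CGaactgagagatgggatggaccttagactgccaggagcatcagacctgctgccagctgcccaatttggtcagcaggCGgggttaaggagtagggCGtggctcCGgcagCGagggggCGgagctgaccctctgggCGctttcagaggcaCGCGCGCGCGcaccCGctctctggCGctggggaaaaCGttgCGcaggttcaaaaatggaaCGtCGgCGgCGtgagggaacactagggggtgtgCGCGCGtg
The *Phc3* window held 12 CpG, the *Phc1* window 8 and the *Cbx7* window 23. The median of all 32851 RefSeq promoter windows of the same length was 6, and 10 of the 11 windows of the 9 genes were above it. On either strand, the NRF1 core GCATGCGC ended at the last base before the *Phc3* start with an overlapping match on the reverse strand, and it was in no other of the 11 windows, against 2.26% of all windows. The GC box GGGCGG was in 9 of the 11 windows, against 32.7% of all windows. *Phc3* had it at 2 places, *Cbx7* at 1 and *Phc1* at 0. The cyclic AMP element TGACGTCA was found only in the *Cbx8* window, and the ETS core CCGGAAG only in 1 of the 3 *Phc2* windows, against 1.55% and 6.91% of all windows. None of these matches overlapped a match to another of the 4 motifs.

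The paralogs share short identical stretches, which bear on how reads are assigned between them. The longest run common to a coding transcript of each gene is shown for *Phc3* with both of its paralogs, in capitals throughout because every base is shared.
*Phc3* and *Phc2*, 20 bases: CAGTACCTGCAGCAGATGTA
*Phc3* and *Phc1*, 15 bases: CAGCAACAACAGCAA
Among the other pairs the longest run was 17 bases for *Phc1* and *Phc2*, 14 bases for *Ring1* and *Rnf2*, and 12 to 16 bases within the 3 Cbx genes.

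Each library had an estimated 4.92 to 6.69 gigabases aligned, so the 4 libraries were of similar size. The estimate is the most common ratio of read depth to the fragment-based FPKM value, which 69.5% to 70.0% of the rows examined per library shared. *Kdm3b* itself had TPM of 9.10 and 11.0 in WT and 8.30 and 7.90 in *Kdm3b*+/- tissue, and differed by -0.27 ± 0.17 (SE) on the log2 scale (limma, adjusted p = 0.424), or by -0.40 without WT mouse 1 and -0.15 without WT mouse 2. Granule cell markers summed to 4562 to 5529 TPM in WT and 4698 to 5219 TPM in *Kdm3b*+/- libraries, and oligodendrocyte markers to 14990 to 17890 TPM over all 4. Over the whole transcriptome 63 of 13652 genes (0.461%) were DEX genes, meaning a Benjamini-Hochberg adjusted p under 0.05 in limma and a fold change over 1.2, and 47 of them (0.344%) were lower in *Kdm3b*+/- tissue. The study called its own DEX genes with DESeq2, another test, so the counts here are not those of the study. The median log2 fold change of all tested genes was -0.07, and 60.4% were negative.

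*Phc3* stood apart from the other 8 genes, with the lowest level and the widest gap between genotypes. Its product carries the SAM domain that links PRC1 complexes. Its TPM was 4.91 and 5.74 in the WT libraries and 1.28 and 0.807 in the *Kdm3b*+/- libraries. Both *Kdm3b*+/- libraries lay far below both WT libraries, and the gap between genotypes was wider than the difference between the mice of either genotype. This follows in large part from the choice of the gene by these values. The group means were 5.33 ± 0.588 and 1.05 ± 0.337 TPM (SD, n = 2 each), 5.10-fold higher in WT, and on the log2(TPM + 1) scale the difference was -1.64 ± 0.20 (SE), which understates the change of a gene this low. It was the rank 15 lowest log2 fold change of the 13652 tested genes, and it was the only one of the 9 genes that was a DEX gene, which is the property it was chosen for. In bulk tissue a lower level in each cell and fewer cells that express the gene cannot be told apart.

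The call for *Phc3* depended on the WT libraries and on which low genes were tested. Its log2 fold change was -1.73 without WT mouse 1 and -1.54 without WT mouse 2, and in neither was it a DEX gene. It also was not a DEX gene when no filter on low values was applied, where 1 of 19182 genes was. The mean read depth over its exons was 10.9 and 14.2 in WT and 3.40 and 2.47 in *Kdm3b*+/- libraries, and per gigabase aligned this was 2.22 and 2.47 against 0.597 and 0.369, a 4.85-fold difference. For *Phc3* the depth is the same measurement as FPKM on another scale, so it gives the coverage behind the values and is no second measure of the difference.

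**Figure D1:**
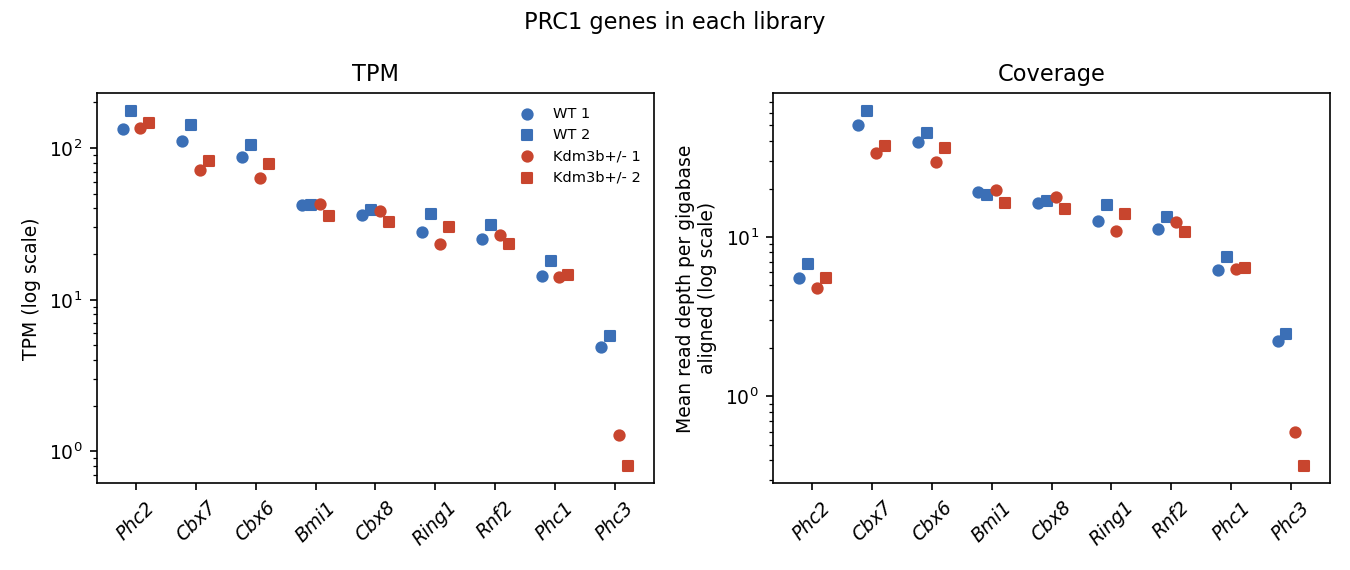
Levels of the 9 PRC1 genes in each library, as TPM (left) and as mean read depth per gigabase aligned (right), both on log axes; each point is 1 mouse. *Phc3* is the gene with a wide gap between genotypes, from 4.91 and 5.74 TPM in WT to 1.28 and 0.807 TPM in *Kdm3b*+/-, and *Phc2* is the highest gene by TPM and the eighth by depth.

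The paralogs of *Phc3* did not share this difference. *Phc1*, whose product is the PHC protein best known from embryonic stem cells, had TPM of 14.3 and 18.03 in WT and 14.1 and 14.5 in *Kdm3b*+/- libraries. The 2 genotypes overlapped, with a log2 fold change of -0.16 ± 0.17. *Phc2*, the polyhomeotic gene with the highest TPM here, had 134 and 175 TPM in WT and 136 and 146 TPM in *Kdm3b*+/- libraries, which also overlapped (log2 fold change -0.12 ± 0.15). With read depth in place of TPM its log2 fold change was -0.30 ± 0.18.

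Within each library *Phc3* was compared with the mean of *Phc1* and *Phc2*, after adding 1 to both TPM values, so the ratio still depends in part on the scale of a library. The log2 ratio was -3.67 and -3.85 in WT and -5.06 and -5.49 in *Kdm3b*+/- libraries, a difference of -1.51. *Phc3* made up 3.20% and 2.89% of the summed polyhomeotic TPM in WT and 0.846% and 0.501% in *Kdm3b*+/- libraries, while the sum itself was 154 and 199 TPM against 152 and 161 TPM and overlapped between genotypes. *Phc3* was thus a small part of the polyhomeotic TPM in both genotypes, and a smaller one in *Kdm3b*+/- tissue.

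How small that share was depended on the measure, because the TPM and the read depth of *Phc2* disagreed. The depth of *Phc2* over its annotated length accounted for 7.55% to 9.06% of its FPKM, the fragment-based value made before the scaling to TPM, against 95.8% to 96.4% for *Phc1* and a lowest value of 99.86% among the other 7 genes. In 127 tested genes (0.93%) the depth accounted for at most 10% of the FPKM in every library. By depth *Phc2* had 5.49 and 6.80 per gigabase in WT and 4.79 and 5.50 in *Kdm3b*+/- libraries, close to *Phc1* with 6.18 and 7.47 against 6.31 and 6.37. On this scale *Phc3* was 16.0% and 14.8% of the polyhomeotic sum in WT and 5.11% and 3.02% in *Kdm3b*+/- libraries. Transcript isoforms were not analysed here, so which of the measures is nearer to the true level of *Phc2* was not tested.

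**Figure D2:**
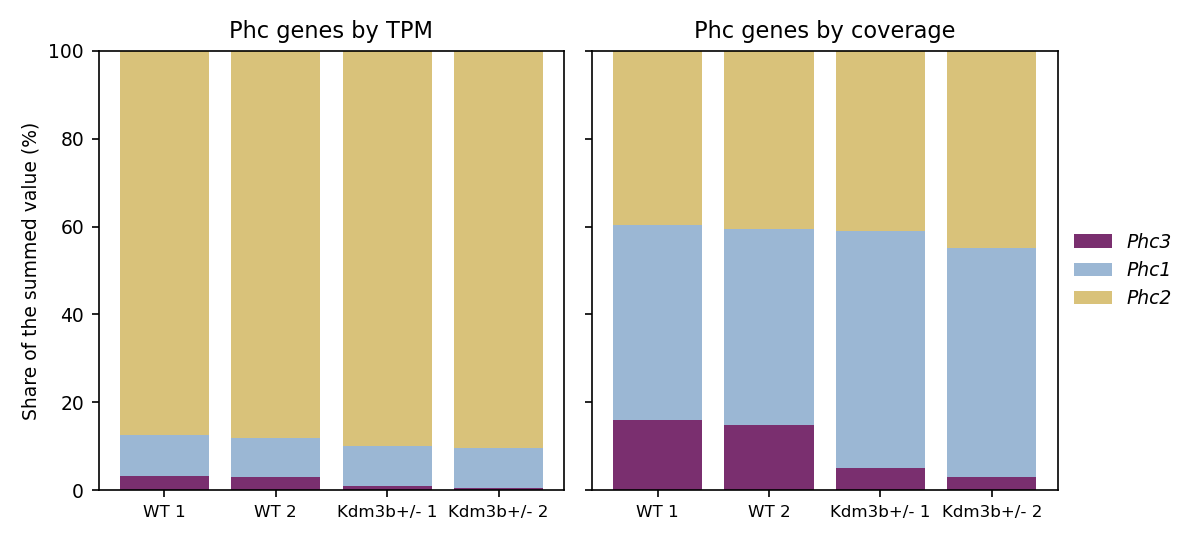
Share of *Phc1*, *Phc2* and *Phc3* in the polyhomeotic sum of each library (percent), by TPM (left) and by mean read depth (right). The *Phc3* segment is smaller in both *Kdm3b*+/- libraries by either measure, 0.846% and 0.501% of TPM against 3.20% and 2.89% in WT, whereas the *Phc2* segment is 87.5% to 90.5% of each TPM bar and 39.55% to 44.95% of each depth bar.

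The 2 genotypes overlapped for both genes of the catalytic core. *Ring1* (19763, chr17:34020792-34024680, minus strand), which encodes 1 of the pair of H2A ubiquitin ligases, had TPM of 27.9 and 36.6 in WT and 23.5 and 30.2 in *Kdm3b*+/- libraries (log2 fold change -0.25 ± 0.19). *Rnf2* (19821, chr1:151469406-151500823, minus strand), which encodes the other ligase, had 25.0 and 30.9 TPM against 26.6 and 23.5 TPM (-0.15 ± 0.16). *Ring1* made up 52.8% and 54.2% of their sum in WT and 46.9% and 56.3% in *Kdm3b*+/- libraries.

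*Bmi1* (12151, chr2:18677018-18686629, plus strand) encodes the Pcgf subunit that defines, with PCGF2, the canonical complex. Its TPM was 42.2 and 42.4 in WT and 42.6 and 35.5 in *Kdm3b*+/- libraries, with a log2 fold change of -0.12 ± 0.15. *Kdm3b*+/- mouse 1 was level with both WT mice and mouse 2 was below them. *Bmi1* was 89.3% to 93.5% of the sum of *Bmi1* and *Pcgf2* in the 4 libraries.

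The chromodomain genes differed among themselves. *Cbx7* (52609, chr15:79915807-79932646, minus strand), whose product is the H3K27me3 reader best known from stem cells and from repression of the *Cdkn2a* locus, had 112 and 142 TPM in WT and 71.8 and 81.5 TPM in *Kdm3b*+/- libraries. The genotypes did not overlap, with means of 127 ± 21.5 in WT and 76.7 ± 6.90 in *Kdm3b*+/- tissue (SD, n = 2 each), and the log2 fold change of -0.71 ± 0.16 was the rank 249 lowest of all tested genes, although *Cbx7* was not a DEX gene. *Cbx6* (494448, chr15:79823898-79834333, minus strand), a CBX gene expressed in brain, had 86.9 and 104 TPM in WT and 63.1 and 78.9 TPM in *Kdm3b*+/- libraries, again without overlap (-0.42 ± 0.16). *Cbx8* (30951, chr11:119038436-119040913, minus strand), whose product reads the same mark, had 36.4 and 39.0 TPM in WT and 38.4 and 32.7 TPM in *Kdm3b*+/- libraries, which overlapped (-0.09 ± 0.15).

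The *Cbx6* value moved with single mice, from -0.27 without *Kdm3b*+/- mouse 1 to -0.58 without *Kdm3b*+/- mouse 2. *Npcd* is annotated on the same strand across *Cbx6*, so reads of the 2 genes may not be told apart. *Npcd* had 4.55 and 2.76 TPM in WT and 2.74 and 3.34 TPM in *Kdm3b*+/- libraries, low beside *Cbx6*. The sum of *Cbx6*, *Cbx7* and *Cbx8* was 235 and 285 TPM in WT and 173 and 193 TPM in *Kdm3b*+/- libraries. *Cbx7* was 47.6% and 49.9% of that sum in WT and 41.4% and 42.2% in *Kdm3b*+/- libraries, and *Cbx8* was 15.5% and 13.7% against 22.1% and 16.95%. The sum was thus lower in both *Kdm3b*+/- libraries and held relatively less *Cbx7*.

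All 9 genes had a negative log2 fold change, against 60.4% of tested genes, with a median of -0.16 against -0.07 over all tested genes. The set was chosen by the low TPM of *Phc3*, so its part in these counts was fixed. The median of the other 8 genes was -0.15, and the signs of *Phc2*, *Cbx8* and *Bmi1* turned under some alternatives given below. *Phc3*, *Cbx7* and *Cbx6* (3 of 9) were lower without overlap, against 32.0% of tested genes, and 0 of 9 were higher without overlap, against 19.2%. The count without overlap was therefore near that of tested genes in general. WT mouse 2 was above WT mouse 1 in 9 of 9 genes, and *Kdm3b*+/- mouse 2 above mouse 1 in 5 of 9, against 58.6% of tested genes for each pair.

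**Figure D3:**
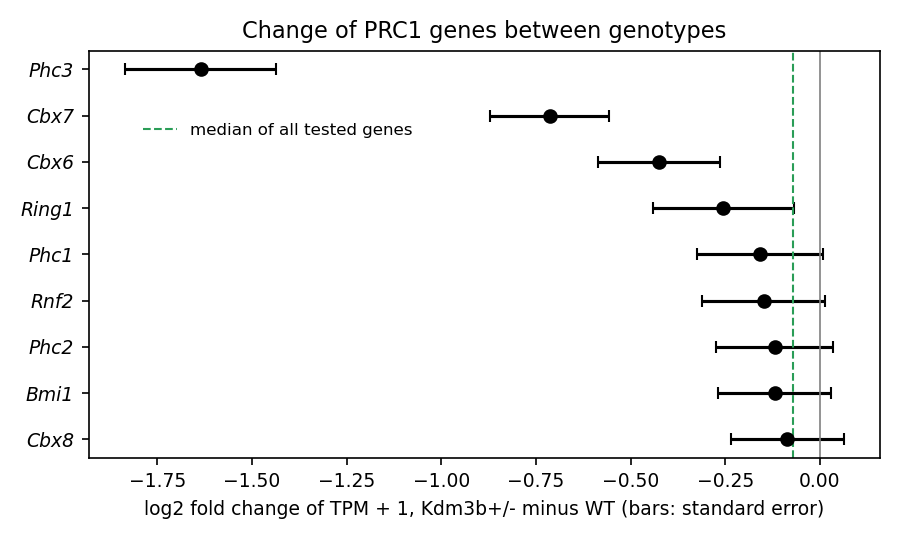
Log2 fold change of *Kdm3b*+/- over WT on the log2(TPM + 1) scale for the 9 genes, with bars of 1 SE, and the median of all tested genes (-0.07). *Phc3* lies at -1.64, *Cbx7* at -0.71 and *Cbx6* at -0.42, and the other 6 genes lie between -0.25 and -0.09.

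By mean TPM over the 4 libraries the order was *Phc2* (148), *Cbx7* (102), *Cbx6* (83.2), *Bmi1* (40.7), *Cbx8* (36.6), *Ring1* (29.6), *Rnf2* (26.5), *Phc1* (15.2) and *Phc3* (3.19). Neighbours in this order did not overlap between *Cbx6* and *Bmi1*, between *Rnf2* and *Phc1*, and between *Phc1* and *Phc3*, and all other neighbours overlapped. *Ring1* was above *Rnf2* in 3 of 4 libraries, and every other neighbouring pair kept its order in all 4. By read depth the order was the same except for *Phc2*, which stood eighth at 5.64 per gigabase, between *Phc1* at 6.58 and *Phc3* at 1.41.

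The remaining Polycomb genes were examined in lists. Of 116 genes in 7 lists, 115 were found and 50 were tested, and 0 were DEX genes in limma, against 0.461% of all tested genes. At an unadjusted p under 0.05, 6 were lower and 1 was higher, against 11.5% and 5.47% of all tested genes, and their median log2 fold change was -0.08. Adjusted p-values ran from 0.0997 to 0.972.

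Of the other canonical PRC1 genes 3 were tested, with a median of -0.20. *Cbx2*, best known from Hox regulation and sex determination, had 2.25 and 2.62 TPM in WT and 1.16 and 1.63 TPM in *Kdm3b*+/- libraries (log2 fold change -0.53 ± 0.20, adjusted p = 0.245). It was lower without overlap and did not pass the test. The log2 fold change was 0.02 for *Pcgf2*, the paralog of *Bmi1* (adjusted p = 0.972), and -0.20 for *Scmh1*, which encodes a SAM domain partner of PHC proteins (adjusted p = 0.587).

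Variant PRC1, in which RYBP or YAF2 replaces the CBX protein, held 20 tested genes with a median of 0.01, 5 lower and 4 higher without overlap, against 32.0% and 19.2% of all tested genes. *Max*, which encodes a partner of MYC and of the PCGF6 complex, had 135 and 111 TPM in WT and 111 and 59.8 TPM in *Kdm3b*+/- libraries. The 2 middle values nearly coincided, so the difference came mainly from *Kdm3b*+/- mouse 2 (log2 fold change -0.58, adjusted p = 0.285, or -0.14 without that mouse and -1.02 without *Kdm3b*+/- mouse 1). *L3mbtl2*, a reader gene of the same complex, had -0.46 (adjusted p = 0.237), *Rybp* 0.33 (adjusted p = 0.387) and *Pcgf6* 0.27 (adjusted p = 0.371).

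PRC2, which writes the H3K27me3 that CBX proteins read, held 12 tested genes with a median of -0.06. *Ezh1*, the methyltransferase of non-dividing cells, had 76.7 and 93.5 TPM in WT and 49.9 and 52.0 TPM in *Kdm3b*+/- libraries, the lowest adjusted p of the 50 genes (log2 fold change -0.72 ± 0.15, adjusted p = 0.0997). The 2 *Kdm3b*+/- mice were close to each other and below both WT mice. *Phf1*, an accessory subunit gene, had -0.31 (adjusted p = 0.313), and the core subunit genes *Eed* and *Suz12* had 0.12 (adjusted p = 0.691) and 0.10 (adjusted p = 0.783).

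The deubiquitinases that remove the PRC1 mark held 5 tested genes with a median of -0.09. *Bap1*, the catalytic subunit of the Polycomb repressive deubiquitinase, had 117 and 170 TPM in WT and 91.5 and 95.7 TPM in *Kdm3b*+/- libraries (log2 fold change -0.59 ± 0.18, adjusted p = 0.181). *Asxl1* and *Asxl2*, alternative partners of BAP1, had -0.24 (adjusted p = 0.483) and 0.17 (adjusted p = 0.596), and *Usp16*, another H2A deubiquitinase gene, had 0.13 (adjusted p = 0.662). The *Bap1* values differed more between the WT mice than between the *Kdm3b*+/- mice, and the log2 fold change was -0.86 without WT mouse 1 and -0.32 without WT mouse 2.

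Of the SAM domain relatives of *Phc3*, 4 were tested, with a median of -0.09. *Sfmbt2* had 0.485 and 1.77 TPM in WT and 1.73 and 2.73 TPM in *Kdm3b*+/- libraries, which overlapped (log2 fold change 0.66, adjusted p = 0.307), and the difference was 0.05 by coverage, 0.21 without WT mouse 1 and 1.10 without WT mouse 2. *Sfmbt1*, *Samd1* and *L3mbtl3* had -0.06 (adjusted p = 0.872), -0.13 (adjusted p = 0.777) and -0.13 (adjusted p = 0.740).

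Genes that PRC1 is known to silence were mostly at or near 0. Of 39 Hox genes 0 reached the level for testing, 28 were listed at 0 in every library, and the highest value in any library was 0.496 TPM. Of 24 other Polycomb targets 6 were tested and 10 were listed at 0 in every library. Among those tested, *Lhx1*, a homeobox gene of Purkinje cells, had 31.9 and 34.8 TPM in WT and 21.8 and 24.1 TPM in *Kdm3b*+/- libraries (log2 fold change -0.52 ± 0.15, adjusted p = 0.169). *Cdkn2b*, a cell cycle inhibitor gene, had 1.34 and 1.41 TPM against 3.73 and 1.94 TPM, higher without overlap in *Kdm3b*+/- tissue (0.65 ± 0.24, adjusted p = 0.242), and its difference was 0.31 without *Kdm3b*+/- mouse 1 and 0.995 without *Kdm3b*+/- mouse 2. The oligodendrocyte lineage genes *Olig2* and *Nkx2-2* had -0.19 (adjusted p = 0.586) and -0.13 (adjusted p = 0.767).

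**Figure D4:**
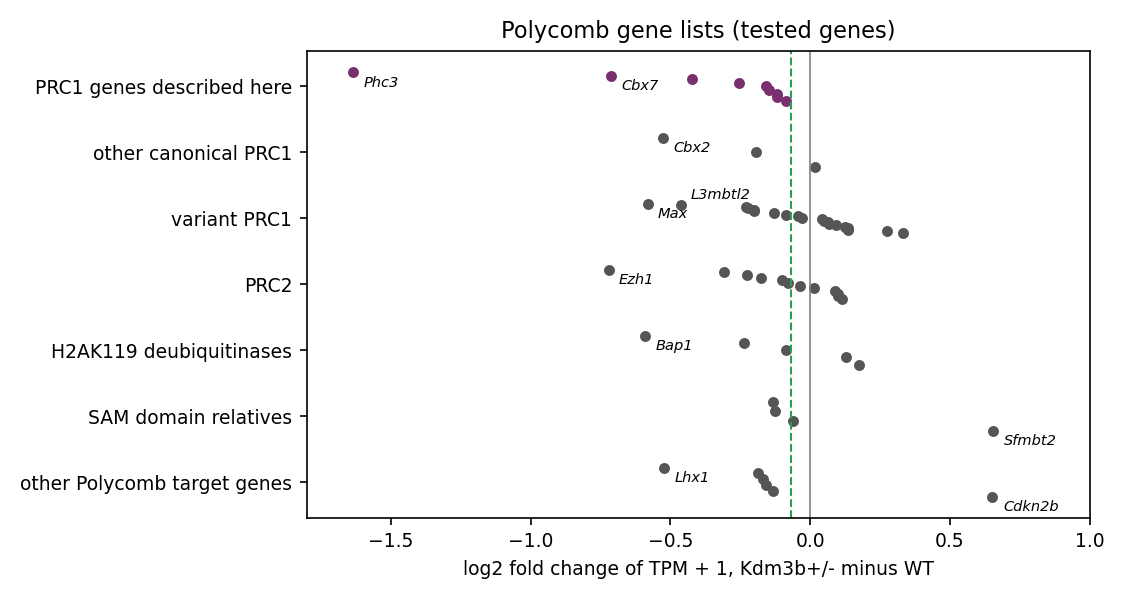
Log2 fold change of *Kdm3b*+/- over WT for the 50 tested genes of the Polycomb lists and the 9 chosen genes, 1 point per gene and 1 line per list, and a dashed line at the median of all tested genes (-0.07), with the Hox list left out because 0 of its 39 genes were tested. *Phc3* at -1.64 is far to the left of every other point, and the next are *Ezh1* at -0.72 and *Cbx7* at -0.71.

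The genes around *Phc3* were read for their own differences between genotypes. Within 500 kb of the gene, 14 genes were listed and 8 tested, and 0 were DEX genes in limma while 1 had an unadjusted p under 0.05, against 0.461% DEX genes and 11.5% lower and 5.47% higher at that p among all tested genes. This was *Prkci*, which encodes an atypical protein kinase C and starts 26.4 kb upstream of *Phc3* in the opposite direction, with 21.99 and 25.5 TPM in WT and 17.8 and 17.6 TPM in *Kdm3b*+/- libraries (log2 fold change -0.40 ± 0.15, adjusted p = 0.246). On the other side *Gpr160*, a G protein-coupled receptor gene, had 0.07 (adjusted p = 0.893) and *Sec62*, which encodes a part of the protein translocation channel, had -0.08 (adjusted p = 0.786). The other tested genes were *Mynn* with -0.25 (adjusted p = 0.440), *Actrt3* with -0.18 (adjusted p = 0.614), *Skil* with -0.08 (adjusted p = 0.846), *Cldn11* with -0.06 (adjusted p = 0.898) and *Slc7a14* with 0.10 (adjusted p = 0.769). A difference as large as that of *Phc3* was found in none of these 8 genes. *Phc3* was chosen for its difference, and 0.11% of all tested genes were as low or lower. Finding none was therefore likely for any 8 genes. How far along the chromosome the difference reached was not tested.

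**Figure D5:**
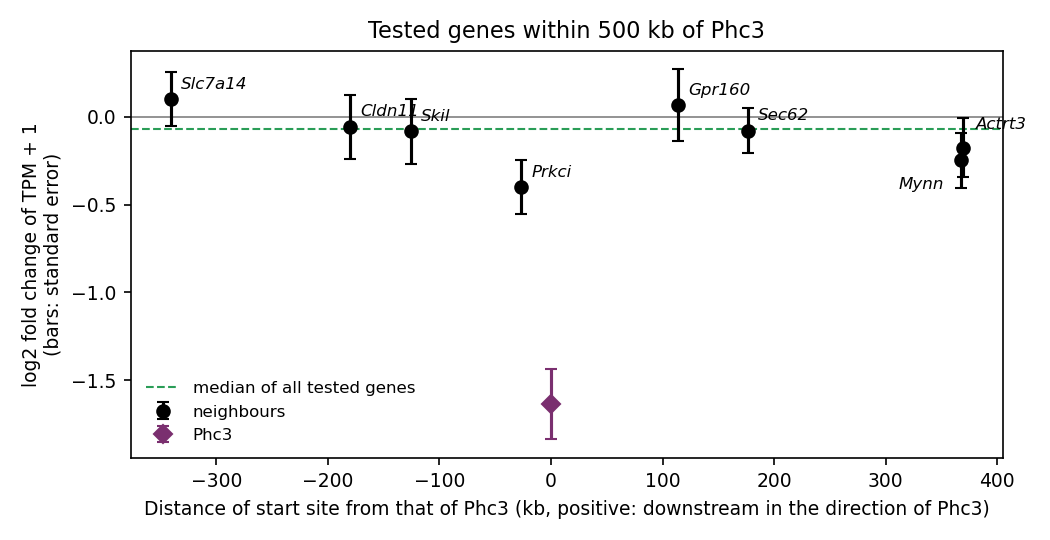
Log2 fold change of *Kdm3b*+/- over WT, with bars of 1 SE, for *Phc3* and the 8 tested genes within 500 kb, against the distance of each gene's start from the *Phc3* start in kilobases. *Phc3* lies at -1.64 and the neighbours lie between -0.40 and 0.10.

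The 5 tested genes whose profile over the 4 libraries was most like that of *Phc3* were *S100a8*, *Ccdc3*, *Prelp*, *Fam83d* and *Xdh*, by the Euclidean distance between the centred log2(TPM + 1) values. The distance was 0.13 for *S100a8*, which encodes a calcium-binding protein of neutrophils and had 4.68 and 5.25 TPM in WT and 0.973 and 0.757 TPM in *Kdm3b*+/- libraries. *Ccdc3* and *Prelp*, an extracellular matrix proteoglycan gene, were at 0.26, *Fam83d*, a mitotic spindle gene, at 0.30, and *Xdh*, the xanthine dehydrogenase gene, at 0.31. All 5 had lower TPM in both *Kdm3b*+/- libraries than in both WT libraries, which the choice by likeness to *Phc3* fixes, so no test is given for them. Among the other 8 PRC1 genes the nearest was *Cbx7*, at rank 178 and a distance of 0.9989.

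Marker lists of other cell types differed from one another in direction. Meningeal fibroblast markers summed to 61.1 and 56.2 TPM in WT and 36.4 and 36.2 TPM in *Kdm3b*+/- libraries. Of the 6 tested markers 5 were lower without overlap and 1 was higher, against 32.0% and 19.2% of all tested genes. Like the other lists, this one was chosen with earlier results of these data known. Purkinje cell markers summed to 1612 and 719 TPM in WT and 879 and 748 TPM in *Kdm3b*+/- libraries. Only WT mouse 1 stood high in the sum, and WT mouse 2 was below both *Kdm3b*+/- mice. Of the 10 Purkinje markers 4 were lower and 0 higher without overlap, against the same shares of all tested genes. Their median log2 fold change was -0.50, against -0.41 for the tested fibroblast markers and -0.07 over all tested genes. Of the 8 microglia markers 4 were higher and 0 lower without overlap, against 19.2% and 32.0% of all tested genes. The microglia median was 0.05. The endothelial and choroid plexus sums overlapped between genotypes. No marker of any of the 8 cell type lists was at 0 in every library, and 3 of the 59 tested markers were DEX genes, against 0.461% of all tested genes. *Aqp4* of astrocytes was higher and *Mobp* of oligodendrocytes and *Fmod* of fibroblasts were lower in *Kdm3b*+/- tissue. *Aqp4* and *Mobp* do not stand for their lists. Of the 8 astrocyte markers 4 were lower and 1 was higher without overlap, against 32.0% and 19.2% of all tested genes. The oligodendrocyte sums overlapped, with 17810 and 16270 TPM in WT and 14990 and 17890 TPM in *Kdm3b*+/- libraries. The part of tissue makeup in the *Phc3* difference was not tested.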

How the data were processed

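GCE mRNA was sequenced from 4 libraries, 2 WT and 2 *Kdm3b*+/-, 1 mouse each. The authors aligned the reads with STAR and made gene tables with StringTie, and versions and annotation are not given in the sources used here. The deposited gene tables hold TPM, FPKM and coverage, the mean read depth over the annotated length, all computed by the authors, and no counts, so a count test did not apply. TPM was the main unit. Depth was estimated at 4.92 to 6.69 gigabases per library, and low genes such as *Phc3* have the least precision.

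The 9 genes and all lists were chosen with earlier results of these data known, and the motifs were chosen after the values were seen. TPM was summed over rows that share a gene ID (220 of 24532 IDs). Symbols and promoters came from RefSeq GRCm38.p6 (24462 IDs and all 9 genes matched), and coding transcripts from GENCODE. Genes averaging 1 TPM or more entered limma 3.58.1 in R 4.3.3 (lmFit and eBayes with trend) on log2(TPM + 1), with Benjamini-Hochberg adjustment over 13652 genes. The fit was tested on simulated data. DEX genes passed an adjusted p of 0.05 and a 1.2-fold change. Named were the 9 genes, *Kdm3b*, the 2 highest and 2 lowest log2 fold changes of each Polycomb list with at least 4 tested genes, each tested neighbour within 500 kb, and the 5 genes most like *Phc3*. Of the other canonical PRC1 list all 3 tested genes were named. *Aqp4*, *Mobp*, *Fmod* and *Npcd* were named after their values were seen. Alternatives were another pseudocount, other filters, FPKM, coverage, other scalings, the 20 highest genes left out, 1 row per gene, eBayes without trend or robust, a replicate block, a correction for length and GC content, and leaving out each mouse. Replicate numbers belong to different mice. Whether same-numbered libraries share a litter or a batch is not given in the labels. One gene of the Polycomb lists is not reported here and was left out of their counts.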

Additional observations from a re-analysis of the deposited data

How the results depend on the processing

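The log2 fold change of *Phc3* was negative under every alternative run that could give it, from -2.27 with a pseudocount of 0.1 to -1.18 by FPKM, and from -1.805 to -1.47 when 1 mouse was left out, where the remaining mouse of that genotype is assumed to vary like the others. Within a library FPKM is proportional to TPM, and the added 1 weighs more on the lower FPKM values of *Phc3*. The FPKM values here and for the ratio below therefore do not show a smaller change. A required mean of 5 TPM leaves *Phc3* untested. With no filter on low values it stayed at -1.64 but was not a DEX gene, since 1 of 19182 tested genes was. The number of the 9 genes that were DEX genes was 0 with no filter and 0 when a mean of 5 TPM was required, and 0 to 1 when 1 mouse was left out (0 without WT mouse 1 or WT mouse 2). The difference in the log2 ratio of *Phc3* to its paralogs was -1.12 by FPKM and -2.15 with a pseudocount of 0.1, and -1.73 to -1.30 with 1 mouse left out. The difference in the *Phc3* share of the polyhomeotic sum was -2.37 percentage points by TPM, -2.54 to -2.20 with 1 mouse left out, and -11.3 by coverage, an alternative chosen after seeing the data, as was adding *Npcd* to *Cbx6*. Among the Polycomb lists 0 to 1 genes were DEX genes with 1 mouse left out, the 1 being *Max* without *Kdm3b*+/- mouse 1 (-1.02).

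With the replicate number as a block, 2 of the 9 genes (*Phc3* and *Cbx7*, the latter at -0.71) and 2 genes of the Polycomb lists (*Bap1*, -0.59, adjusted p = 0.0394, and *Ezh1*, -0.72, adjusted p = 0.0167) were DEX genes, and over all genes the count went from 63 to 600. The numbers belong to different mice, and same-numbered libraries deviated from the group mean with a correlation over genes of 0.121, or 0.0229 after the length and GC correction, under which the block gave 52 DEX genes and 47 without it. The count over all genes was 92 with robust eBayes, 37 without trend, 38 by FPKM, and 21 to 188 with 1 mouse left out.

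Directions that turned belonged to genes with small log2 fold changes. *Phc2* was 0.0521 with the length and GC correction, with or without the block, and -0.31 to 0.069 with 1 mouse left out. By coverage it was -0.30. *Cbx8* was 0.0205 with quantile normalization, 0.0614 with the length and GC correction with or without the block, and -0.20 to 0.0248 with 1 mouse left out. *Cldn11* was 0.0052 by FPKM, 0.0118 with median-ratio scaling and 0.0619 with quantile normalization, *Skil* 0.0094 with quantile normalization, *Sfmbt1* 0.001 with median-ratio scaling and 0.0301 with quantile normalization, and *Pcgf2* -0.0146 by coverage. With 1 mouse left out the ranges were -0.25 to 0.0074 for *Bmi1*, -0.28 to 0.0146 for *Nkx2-2*, -0.28 to 0.17 for *Cldn11*, -0.22 to 0.0567 for *Skil*, -0.19 to 0.22 for *Pcgf2*, -0.41 to 0.0164 for *Scmh1*, -0.0409 to 0.24 for *Suz12*, -0.33 to 0.0733 for *Samd1*, -0.0734 to 0.21 for *Gpr160* and -0.13 to 0.0051 for *Sfmbt1*. Without a sign change, *Phc1* ran from -0.32 to -0.0015, *Ring1* from -0.44 to -0.0662, *Rnf2* from -0.296 to -0.0017, *L3mbtl2* from -0.64 to -0.29 and *Rybp* from 0.15 to 0.51. Causes were not tested.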
